A study of Mus musculus with 2 samples.

Results

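Mature dendritic cells expressing Ccr7 and Ccl22 were taken from single-cell libraries of whole mouse uterus. They numbered 321 of the 8603 barcodes kept as cells, 130 of 3653 in the control library and 191 of 4950 in the conditional knockout (cKO) library. Barcodes were kept as cells from 500 detected genes upward and with no more than 20% of their unique molecular identifiers (UMIs, counted transcript molecules) from mitochondrial genes. A cell was a member when it held at least 5 UMIs of the class II genes H2-Aa, H2-Ab1 and H2-Eb1 together and at least 1 UMI of 2 or more of Ccr7, Ccl22, Il4i1, Ccl17 and Apol7c. It also had to hold no UMI of the T cell gene Cd3e or the B cell gene Cd79a and fewer than 3 UMIs of the complement C1q genes. The members were thus chosen by the measured UMIs of these genes, and the levels of those genes are given as a description only.

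Both groups were female mice aged 6 months with floxed alleles of Prickle1, a planar cell polarity gene (Prickle1 f/f). The cKO mice also carried an iCre recombinase under Ltf, the lactoferrin gene, which in the uterus is expressed mainly in the epithelium and is also a neutrophil granule gene. A single library was made per genotype from the pooled uteri of 3 mice, digested with collagenase and DNase, freed of red cells and strained. Groups follow the sample titles, whereas a genotype entry calls both samples C57BL/6J wild-type. Prickle1 itself gave 1 UMI in the control members and 8 in the cKO members, with 1.55 and 5.69 CPM (UMIs scaled to a fixed library total) in cell-free barcodes of the same libraries, so the members do not check the labels. Effects of genotype cannot be told apart from those of the pooled animals, the digestion or the library, and no test between groups was possible. The intervals given below are 95% intervals and cover counting error only.

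Dendritic cells sample antigen in tissues and present it to T cells on class II molecules. When they mature, they raise the chemokine receptor Ccr7, which guides them through lymphatic vessels towards draining lymph nodes, lower antigen uptake, and raise co-stimulatory molecules together with molecules that restrain T cells. The same mature state is reached from both conventional lineages, cDC1 and cDC2, and also contains the chemokines Ccl22 and Ccl17, ligands of Ccr4 on regulatory and helper T cells. Interferon signalling is among the signals that can accompany maturation, and its target genes carry interferon-stimulated response elements in their promoters.

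Ccr7 (ENSMUSG00000037944) lies on chromosome 11 at 99144196-99155077 in GRCm38. Ccl22 (ENSMUSG00000031779) and Ccl17 (ENSMUSG00000031780) are neighbours on chromosome 8, at 94745590-94751699 and 94810453-94812036. Il4i1 (ENSMUSG00000074141), an L-amino acid oxidase, lies on chromosome 7 at 44816387-44840809, and Apol7c (ENSMUSG00000044309), an apolipoprotein L family member, on chromosome 15 at 77524852-77533316.

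The 4 promoters below are those of 3 interferon-response genes that were among the lowest in cKO and of the rule gene Apol7c, which held the same motif. They were chosen for holding a match. Each is the 250 bases before the RefSeq transcript start on GRCm38.p6, printed on the gene's strand. Capitals mark matches to the interferon-stimulated response element (GAAA, any 2 bases, GAAA) on either strand and, in Cxcl10, also matches to the NF-kappaB consensus. The windows are Ifit1 at chr19:34640639-34640888 (plus strand), Rsad2 at chr12:26456453-26456702 (minus strand), Cxcl10 at chr5:92348890-92349139 (minus strand) and Apol7c at chr15:77533316-77533565 (minus strand).
Ifit1: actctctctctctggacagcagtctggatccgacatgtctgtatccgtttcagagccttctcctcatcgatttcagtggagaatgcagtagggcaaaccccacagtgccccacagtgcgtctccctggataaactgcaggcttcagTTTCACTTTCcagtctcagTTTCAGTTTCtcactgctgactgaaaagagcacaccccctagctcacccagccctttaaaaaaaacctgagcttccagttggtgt
Rsad2: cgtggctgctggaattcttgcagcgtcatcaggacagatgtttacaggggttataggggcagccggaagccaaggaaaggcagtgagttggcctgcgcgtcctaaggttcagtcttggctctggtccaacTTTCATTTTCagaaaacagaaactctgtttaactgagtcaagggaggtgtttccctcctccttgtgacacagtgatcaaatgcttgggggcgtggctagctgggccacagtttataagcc
Cxcl10: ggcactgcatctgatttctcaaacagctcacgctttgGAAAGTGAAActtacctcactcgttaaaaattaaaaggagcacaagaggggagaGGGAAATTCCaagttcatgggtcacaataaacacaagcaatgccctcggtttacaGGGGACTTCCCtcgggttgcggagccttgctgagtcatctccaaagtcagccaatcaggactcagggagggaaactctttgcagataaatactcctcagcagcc
Apol7c: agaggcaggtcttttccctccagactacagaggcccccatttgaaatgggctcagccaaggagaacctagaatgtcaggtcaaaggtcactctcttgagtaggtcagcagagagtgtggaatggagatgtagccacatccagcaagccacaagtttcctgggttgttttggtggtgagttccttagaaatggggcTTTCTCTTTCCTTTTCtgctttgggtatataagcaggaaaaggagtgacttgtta
Ifit1 and Apol7c each held 2 matches to the response element, overlapping in Apol7c, and Rsad2 and Cxcl10 held 1 each. Cxcl10 also held 4 matches to the NF-kappaB consensus, counted over both strands, of which 3 overlap one another. Among 27025 genes with a promoter entry, 936 (3.46%) held the response element in this window. It was found in 20 of the 35 matched genes (57.1%) of a list of 44 interferon-response genes and in 1 of 26 matched genes of a dendritic maturation list. The NF-kappaB consensus was found in 8.23% of all genes, in 8 of 19 matched NF-kappaB pathway genes and in 0 of the 4 matched rule genes. It was also found in 8 of the 35 interferon-response genes, 7 of the 26 maturation genes and 3 of 11 class II pathway genes. The response element was in 1 of those 4: Ccl17, Ccl22 and Il4i1 held none, and neither did Cmpk2, which is also among the lowest genes in cKO. A match is a description of the letters and not a measured binding site.

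The members were measured deeply. The median was 11222 UMIs and 2518 genes per cell in control and 13055 UMIs and 3074 genes in cKO, with 2.85% and 3.53% mitochondrial UMIs. Summed over members the libraries held 1807669 and 2848130 UMIs, of which a single cell gave 7.21% in control and 2.19% in cKO. No barcode was shared by members of both libraries, and 5 were shared among all cells. A doublet score over 0.25 marked 2 control and 5 cKO members, which were kept.

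Some members carried transcripts of other cell types. At least 3 UMIs of the epithelial genes Epcam, Krt8, Krt18 and Krt19 were held by 17 control and 5 cKO members, and at least 3 UMIs of 12 T and NK cell genes by 2 and 28. At least 3 UMIs of 8 stromal and smooth muscle genes were held by 14 and 16. The 28 control and 45 cKO members with any of these had median depths of 19045.5 and 18946 UMIs, against 10230.5 and 12084.5 for the 102 and 146 without. The members without them are called unmixed below, a class set after these values were seen. It was not filtered on endothelial transcripts. Of 9 endothelial and mesothelial genes counted, 6 were higher in cKO past 2-fold over all members, beside 2.01% of all genes. Among unmixed members 3 were higher and 2 lower.

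Most members held several rule genes. In control 45, 51, 28 and 6 cells held 2, 3, 4 and 5 of the 5 genes, and in cKO 29, 61, 64 and 37 cells did. Just outside the limit, 27 control and 17 cKO cells held exactly 1. Of the class II limit, 5 control and 15 cKO members held 5 to 9 UMIs, and 5 and 17 cells just outside it held 1 to 4. C1q, Cd3e and Cd79a left out 3, 3 and 1 cells in control and 7, 16 and 3 in cKO that met the other conditions.

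Ccr7 was the most widely detected rule gene, in 129 of 130 control members (5675 UMIs, 3139 CPM) and in 190 of 191 cKO members (12070 UMIs, 4238 CPM). Ccl22 stood at 2047 CPM from 106 control cells and at 6708 CPM from 174 cKO cells, a ratio of 3.28 (3.16 to 3.40). Apol7c was held by 18 control and 75 cKO members, at 155 and 714 CPM (ratio 4.59, 4.05 to 5.22). The chemokine Ccl17 was the most uneven of the 5, at 79.1 CPM from 24 control cells, with 39.9% of its UMIs in a single cell, and 257 CPM from 66 cKO cells (ratio 3.24, 2.71 to 3.91). Il4i1 stood at 636 and 884 CPM (ratio 1.39, 1.30 to 1.49), a smaller difference, like that of Ccr7 (ratio 1.35, 1.31 to 1.39). Among unmixed members the ratios of Ccl22, Apol7c and Ccl17 were 3.37, 4.25 and 4.32.

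Since deeper cells show more genes, each cell was also thinned to 1000 UMIs. The share of members with a Ccl22 UMI was then 52.3% in control and 72.3% in cKO, with 0.223% and 0.347% in collagen-expressing stromal cells that should lack the gene. For Ccr7 the thinned shares were 84.6% and 91.1%, against 0% and 0.0694% in those stromal cells. Stromal cells had median depths of 9331.5 and 16044.5 UMIs. The order of the libraries was thus the same at equal depth, for genes that chose the cells.

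The class II genes of the rule differed less. H2-Aa stood at 2882 CPM in control and 2983 in cKO, H2-Ab1 at 2088 and 1716, and H2-Eb1 at 1949 and 1652.

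**Figure D1:**
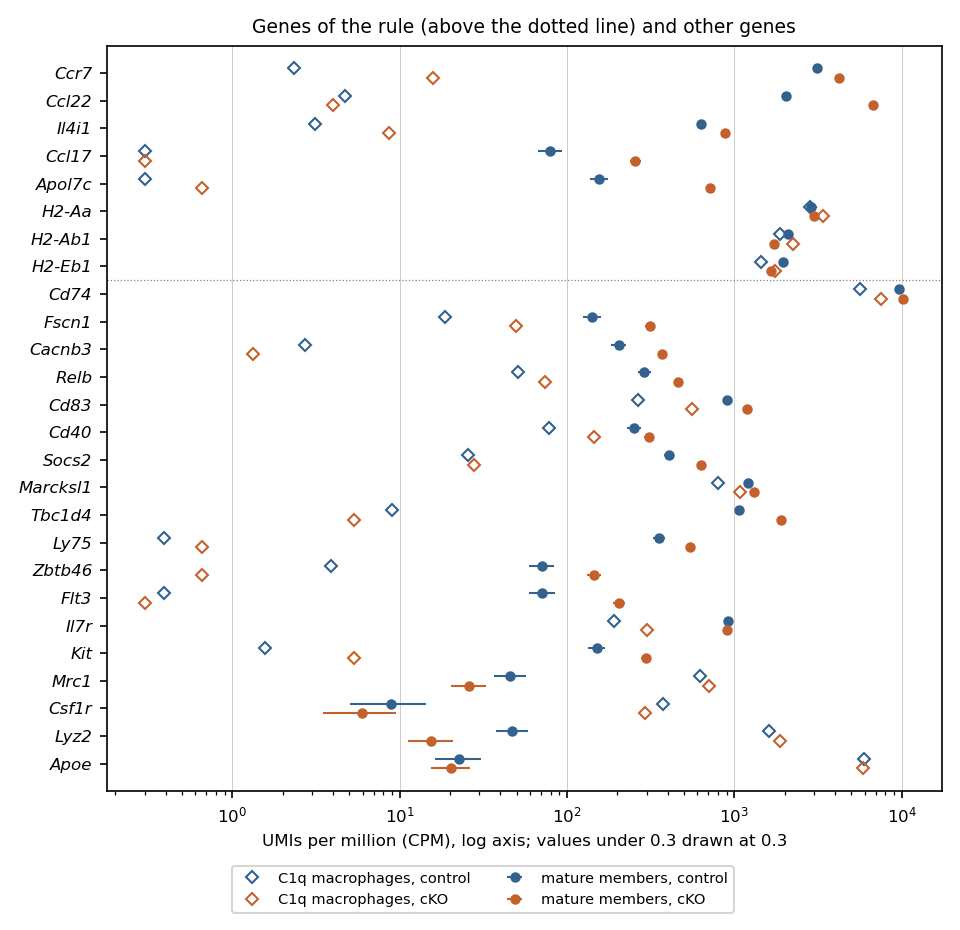
Level in CPM (log axis) of the 8 rule genes, above the dotted line, and of other genes in mature members (filled points with 95% Poisson intervals) and C1q macrophages (open diamonds), control in blue and cKO in orange, values under 0.3 drawn at 0.3. Ccr7 stands at 3139 and 4238 CPM in members and at 2.34 and 15.9 CPM in macrophages, and Apoe shows the opposite order.

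The members were compared with C1q macrophages on genes the rule did not use. The macrophages, 261 control and 128 cKO cells, held at least 3 C1q UMIs. They held fewer than 2 of the 5 marker genes and no Cd3e or Cd79a UMI. Both classes were chosen by C1q and marker genes, so genes that move with those follow in part from that choice. The comparison is a description and not a test of the label. A planned comparison class of Flt3-expressing dendritic cells that lacked the markers was too small, with 4 control and 8 cKO cells. It held plasmacytoid genes such as Siglech among its UMIs. Against it 26 of 6686 genes (0.389%) were higher in both libraries and 33 (0.494%) lower. The macrophages were taken as comparison class after that was seen. A gene counted as different when its 95% interval lay past 2-fold in both libraries, over genes with at least 20 UMIs in each. By this rule 442 of 8761 genes (5.05%) were higher in the mature cells and 652 (7.44%) were lower.

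Of the 12 genes that stood highest, 3 (Tbc1d4, Mreg and Cacnb3) belong to the maturation list. Ly75 (the antigen receptor DEC-205) stood at 356 and 546 CPM in control and cKO members, where the macrophages held 1 UMI in each library (ratios of 911, 163 to 36030, and 823, 148 to 32543). Tbc1d4, a Rab GTPase activating protein, stood at 1072 and 1889 CPM, 119-fold and 356-fold over them. Cacnb3, a calcium channel subunit, stood 74.9-fold (36.0 to 187) and 279-fold (77.1 to 2307) higher. The interleukin 2 receptor chain Il2ra stood 466-fold (159 to 2264) and 140-fold (67.7 to 348) higher. Zbtb46, the transcription factor of the conventional dendritic lineage, stood at 70.8 and 145 CPM, 18.1-fold (9.54 to 38.7) and 219-fold (39.0 to 8658) over macrophages, the wide limit coming from a single macrophage UMI in cKO. The other genes with the largest differences were Scin, Pkib, Mreg, Net1, Timd4, Havcr1, Btla and Kit. Kit, a growth factor receptor, was 96.3-fold (37.2 to 356) and 55.7-fold (28.1 to 129) higher. Timd4, a phosphatidylserine receptor also found on some resident macrophages, was 151-fold (51.2 to 737) and 109-fold (37.2 to 530) higher.

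Most macrophage genes stood lower in members than in macrophages, and several were near the floor. Pf4 gave 2 UMIs in control and 0 in cKO members, against 2614 and 2317 CPM in macrophages. Apoe stood at 22.7 and 20.4 CPM against 5976 and 5858, and Csf1r, the receptor of the macrophage growth factor, at 8.85 and 5.97 against 374 and 292. Trem2, Cx3cr1, F13a1, Retnla, Siglech and Cd3g were at 0 in the members of both libraries. Of 16 macrophage list genes counted, 14 were below macrophages and 0 above, beside 7.44% below and 5.05% above over all genes.

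By role, the mature cells differed from macrophages as follows, beside 5.05% of all genes above and 7.44% below. Of 35 maturation genes counted, 20 were above macrophages in both libraries and 0 below, including the actin bundler Fscn1 (142 and 314 CPM against 18.7 and 49.7), Socs2 (15.8-fold and 22.8-fold higher) and Cd200 (41.4-fold and 44.2-fold higher). Of 29 uptake genes 2 were above (Ly75 and Ncf1) and 22 below, among them Mrc1, the mannose receptor, at 45.9 and 26.0 CPM against 621 and 710. Of 15 chemokines counted, with the rule genes left out, 0 were above and 11 were below.

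The actin and motility list had 8 of 20 above and 1 below, and the NF-kappaB pathway list 8 of 25 above and 1 (Ikbke) below. Over all genes 5.05% were above and 7.44% below, and nothing is read from single calls. Rel, an NF-kappaB subunit, stood at 1467 and 1746 CPM, 7.34-fold and 6.15-fold over macrophages. In the class II pathway list, 4 of 12 genes were above (H2-Eb2, H2-Ob, Ciita and Ifi30) and 3 below (Ctss, Lgmn and March1). Of 9 co-stimulatory genes, Cd80, Tnfsf4 and Tnfsf9 were above and Cd48 was below. Of 15 genes that restrain T cells, 4 were above (Pdcd1lg2, Cd200, Socs2 and Itgb8) and 4 below (Tgfb2, Il10, Socs3 and Vsir). Pdcd1lg2, a ligand of the inhibitory receptor PD-1, stood at 90.7 and 111 CPM, 19.4-fold and 15.3-fold over macrophages, while its relative Cd274 stood at 653 and 617 against 423 and 317 and was not past 2-fold.

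As a share of all cells the members were 3.56% in control (2.98 to 4.21) and 3.86% in cKO (3.34 to 4.43), a ratio of 1.08 (0.863 to 1.37). Without cells with 3 or more epithelial UMIs in numerator and denominator the shares were 4.99% and 3.92%, a ratio of 0.787 (0.619 to 1.003). The direction of the share thus turned with the denominator, and both intervals included 1. Among mature cells plus C1q macrophages the mature share was 33.2% in control (130 of 391) and 59.9% in cKO (191 of 319), a ratio of 1.80 (1.43 to 2.27). The macrophages themselves were 7.14% of control and 2.59% of cKO cells, so this share moved with their number. A share of recovered cells can also move with dissociation, which was not tested.

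Between the libraries, 191 of 9502 genes counted in the members (2.01%) were higher in cKO with the interval past 2-fold, and 545 (5.74%) were lower. The median log2 ratio over all counted genes was 0.23, and a scaling by trimmed means would move every ratio down by 0.175, giving 136 higher and 629 lower genes. Among unmixed members 77 genes were higher and 186 lower. The genes to name were those whose interval lay farthest from equality. Of the 10 lowest, 7 are interferon-response genes and 3 are epithelial genes.

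**Figure D2:**
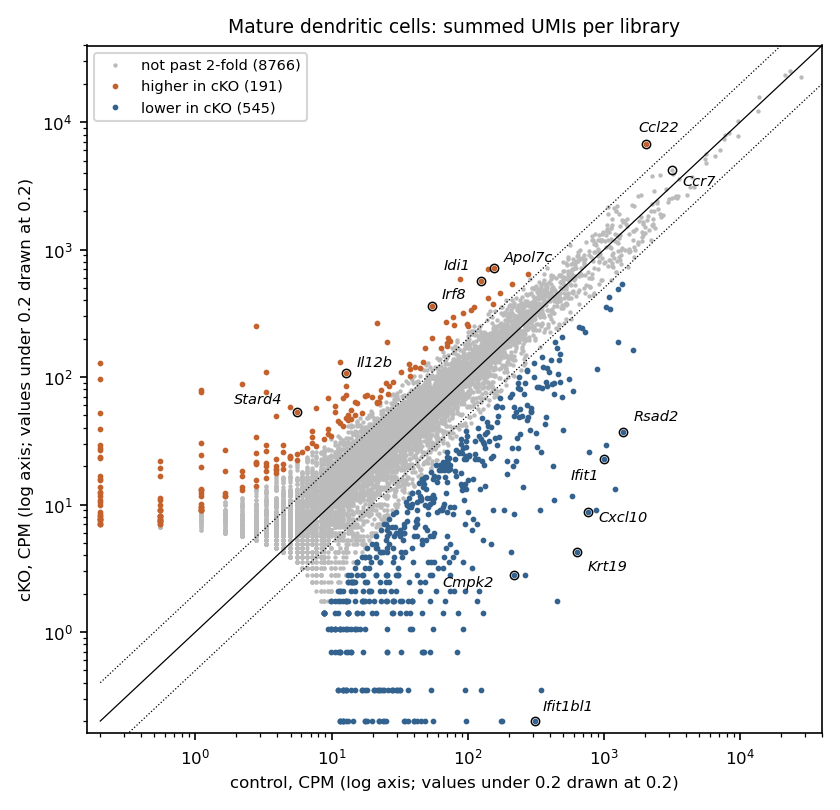
Level of each counted gene in control (x axis) and cKO (y axis) mature members in CPM, both log axes, values under 0.2 drawn at 0.2, with equality as a solid line and 2-fold as dotted lines. The 191 genes past 2-fold higher in cKO are orange and the 545 lower are blue, and Ifit1, Rsad2, Cxcl10 and Cmpk2 lie far below the line.

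Of 44 interferon-response genes, all counted, 42 were lower in cKO past 2-fold and 0 higher, beside 5.74% lower and 2.01% higher over all genes. The median log2 ratio of these 44 genes was -2.84. Their summed level was 13805 CPM in control members and 1975 CPM in cKO members. Irf1, a transcription factor of the pathway, was among those not past 2-fold (136 and 114 CPM, ratio 0.841). Among unmixed members 40 of the 44 were lower. In this list the promoters printed above belong to Ifit1, Rsad2 and Cxcl10.

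Ifit1, which binds foreign RNA, had 1805 UMIs in 66 control members (999 CPM) and 65 UMIs in 24 cKO members (22.8 CPM), 43.8-fold lower (34.2 to 56.9). Rsad2, the antiviral enzyme viperin, had 2508 UMIs in 67 and 106 UMIs in 25 members, 1387 and 37.2 CPM, 37.3-fold lower (30.7 to 45.7). Cmpk2, a mitochondrial nucleotide kinase and the neighbour of Rsad2 on chromosome 12, stood at 217 and 2.81 CPM, 77.2-fold lower (38.8 to 180). These genes were thus found in 47 to 67 control members and in 7 to 25 cKO members.

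Cxcl10, a ligand of Cxcr3 on T cells, had 1379 UMIs in 48 control members and 25 UMIs in 5 cKO members, 763 and 8.78 CPM, 86.9-fold lower (58.6 to 135). Ifit3 stood at 262 and 2.81 CPM, 93.2-fold lower (46.9 to 217). Ifit3b had 175 and 0 UMIs, at least 91.9-fold lower against the limit of 3 counts per library, and Ifit1bl1 560 and 0 UMIs, at least 294-fold lower. The interval limits nearer to 1, used for the other genes, were lower, at 74.0-fold and 238-fold. Ifit3 and Ifit3b are near-identical copies, so their split is uncertain. Smaller ratios belonged to Isg15, a ubiquitin-like modifier (1276 and 188 CPM, 6.78-fold lower, 6.17 to 7.46), Irf7 (194 and 17.2 CPM, 11.3-fold lower) and Oasl1 (322 and 84.3 CPM, 3.82-fold lower).

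The cell-free barcodes of the libraries moved with these genes. Ifit1 stood at 306 and 14.0 CPM there in control and cKO, Rsad2 at 407 and 49.0, and Cxcl10 at 211 and 40.7. In control members these 3 genes were above their cell-free level. In cKO members the 37.2 CPM of Rsad2 and the 8.78 CPM of Cxcl10 were under it. With cell-free UMIs subtracted, 42 of the 44 genes were still lower. The subtracted share, 14.0% in control and 12.3% in cKO members, was estimated from stromal and endothelial UMIs of all members. Of the stromal and smooth muscle UMIs, 497 of 513 in control and 1124 of 1182 in cKO lay in members with at least 3. The share thus includes mixed cells and does not measure cell-free RNA alone.

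At 1000 UMIs per cell, 35.4% of control members (27.2 to 44.2) and 1.57% of cKO members (0.325 to 4.52) held an Ifit1 UMI. In stromal cells the shares were 2.90% and 0.0694%, and in macrophages 28.6% and 15.1%. For Rsad2 the shares were 33.8% and 2.62% in members and 3.35% and 0.486% in stromal cells. The shares of control members were thus above those of stromal cells in the same library.

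In the macrophages of the same libraries, 12 of the 44 interferon-response genes were lower in cKO past 2-fold and 0 higher, with a median log2 ratio of -0.76. Rsad2 stood at 4757 and 1913 CPM in them and Cxcl10 at 1715 and 784. Over all genes, 91 of 9112 (0.999%) were lower in cKO macrophages past 2-fold and 162 (1.78%) higher. Ifit1 stood at 1367 and 341 CPM in macrophages, against 999 and 22.8 in members. Whether the difference differs between the classes was not tested. Both classes come from the same 2 libraries, so their values are not independent.

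Cell by cell, the control members were spread widely. Summed interferon-response UMIs per 10000 UMIs ran from 0.929 to 952 in control, with quartiles at 12.8 and 321 and a median of 53.8. In cKO they ran from 0 to 194, with quartiles at 6.37 and 26.4 and a median of 11.6. In control 45 of 130 members (34.6%) lay above the highest cKO member, and the lower part of the control range overlapped the cKO members. The macrophage medians were 34.3 and 14.6, and their highest cells 1757 and 947.

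**Figure D3:**
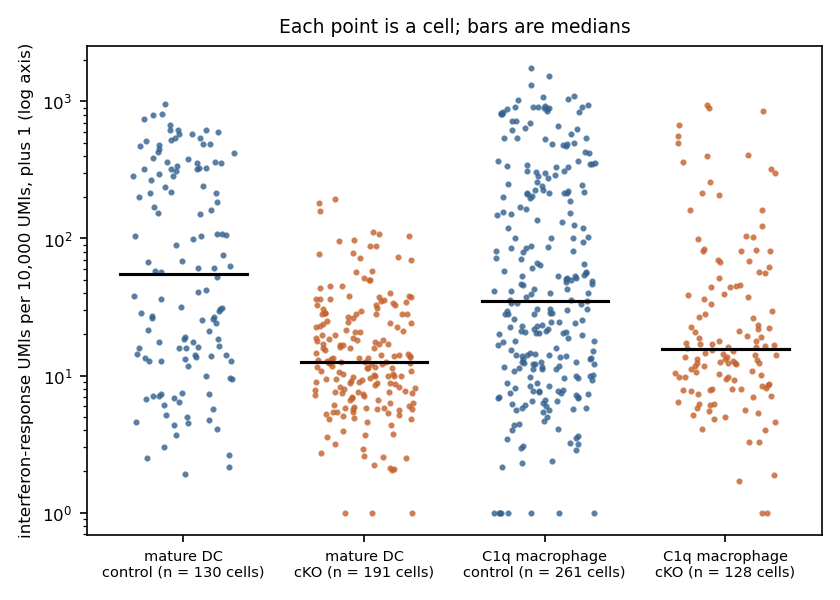
Summed UMIs of 44 interferon-response genes per 10000 UMIs, plus 1, on a log axis, with each point a cell and black bars the medians, for mature members and C1q macrophages of each library. Control members have a median of 53.8 and reach 952, and cKO members have a median of 11.6 and reach 194.

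Of 24 counted uptake and pattern recognition genes, Fcgr1 and Cybb were lower in cKO (5.74% over all genes) and 0 were higher, and 5 were lower among unmixed members. Of 11 counted macrophage and monocyte genes, Cd68, Fcgr1 and Lyz2 were lower and Lyve1 was higher, and 2 were lower among unmixed members; their part in the uptake genes was not tested. Il15, a cytokine that sustains NK and memory T cells, had 165 UMIs in 51 control cells and 40 UMIs in 26 cKO cells, 91.3 and 14.0 CPM, 6.50-fold lower (4.58 to 9.43). Ccl5, a chemokine for T cells, stood at 1041 and 356 CPM, 2.92-fold lower (2.71 to 3.16). Fcgr1, the high-affinity IgG receptor, had 100 UMIs in 27 cells and 3 UMIs in 1 cell, 52.5-fold lower (17.5 to 259). Cybb, a subunit of the phagocyte oxidase, stood at 68.0 and 20.7 CPM (ratio 0.304, 0.219 to 0.419).

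Of 15 chemokines counted, 6 were lower in cKO (Ccl4, Ccl5, Cxcl2, Cxcl9, Cxcl10 and Cxcl12; 5.74% over all genes) and 3 higher (2.01% over all genes), of which Ccl17 and Ccl22 belong to the rule. The third, Xcl1, is a lymphocyte chemokine, had 0 control and 84 cKO UMIs, and lost its call among unmixed members. Cxcl9 stood at 109 and 15.8 CPM, 6.90-fold lower. Cxcl2, a neutrophil chemokine, stood at 1117 and 345 CPM, with 43.4% of its control UMIs in a single cell. Cxcl16, a membrane chemokine, was held by 123 and 187 members at 589 and 625 CPM and did not differ past 2-fold. Among unmixed members 4 chemokines were lower (Ccl5, Cxcl2, Cxcl9 and Cxcl10), and Cxcl1 joined Ccl17 and Ccl22 as higher. The list's median log2 ratio over all members was -1.16, against 0.23 over all genes.

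Of 11 chemokine and migration receptors counted, S1pr1 was higher and Ccrl2 lower, beside 2.01% higher and 5.74% lower over all genes. S1pr1, a receptor for exit into lymph, had 4 and 52 UMIs in 3 and 14 cells (ratio 8.25, 3.04 to 31.4) and lost its call among unmixed members. Among unmixed members 0 receptors were higher and 2 were lower, Ccrl2 among them. Ccrl2 stood at 65.8 and 21.4 CPM, 3.07-fold lower. Gpr183, an oxysterol receptor that positions dendritic cells, stood at 263 and 377 CPM and was not past 2-fold.

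Of 36 maturation genes counted, 2 were higher in cKO (Il12b and Aldh1a2) and 2 lower (Ccl5 and Il15), with a median log2 ratio of 0.34, against 2.01% higher and 5.74% lower over all genes. Cd83 stood at 906 and 1196 CPM, Cd40 at 252 and 308, Cd86 at 233 and 254 and Relb, an NF-kappaB subunit, at 290 and 460. Fscn1 had a ratio of 2.21 (1.93 to 2.55) over all members and 2.96 over unmixed members, where it was past 2-fold. The median per-cell sum of maturation UMIs was 180 per 10000 in control and 202 in cKO.

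None of 10 co-stimulatory genes, 25 NF-kappaB pathway genes, 15 class II pathway genes and 17 class I pathway genes was past 2-fold. The median log2 ratios of these lists were 0.50, 0.18, 0.0050 and -0.29. With 2.01% of all genes higher and 5.74% lower, few calls would stand in lists of this size, and nothing is read from their absence. Of 14 counted genes that restrain T cells, Tgfb2, Itgb8 and Aldh1a2 were higher and Lgals9 lower, and among unmixed members Aldh1a2 alone was higher. Aldh1a2, the enzyme that makes retinoic acid, had 67 UMIs in 27 control and 364 UMIs in 64 cKO cells, 37.1 and 128 CPM (ratio 3.45, 2.65 to 4.54), with a ratio of 6.09 among unmixed members and a cell-free level of 15.1 and 122 CPM. Itgb8, an integrin that activates TGF-beta, stood at 74.1 and 190 CPM (ratio 2.57), and its ratio of 1.86 among unmixed members was not past 2-fold. Tgfb2 had 2 and 35 UMIs and none in unmixed members.

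Irf8, the transcription factor of the cDC1 lineage, had 98 UMIs in 19 control and 1035 UMIs in 76 cKO members, 54.2 and 363 CPM (ratio 6.70, 5.44 to 8.33). Its ratio among unmixed members was 4.05. Cell-free barcodes held Irf8 at 42.7 and 359 CPM, close to the members' own levels in both libraries. At 1000 UMIs per cell 3.85% of control members (1.26 to 8.75) and 16.2% of cKO members (11.3 to 22.2) held an Irf8 UMI, against 1.79% and 1.60% of stromal cells and 10.0% and 15.1% of macrophages. The ratio stayed past 2-fold with cell-free UMIs subtracted.

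Il12b, a subunit of interleukins 12 and 23, had 23 UMIs in 4 control cells and 308 UMIs in 15 cKO cells, 12.7 and 108 CPM (ratio 8.50, 5.56 to 13.6). A single cell gave 56.5% of these UMIs in control and 54.9% in cKO. Flt3, the receptor of the dendritic cell growth factor, stood at 71.4 and 204 CPM (ratio 2.85, 2.35 to 3.48) and lost its call among unmixed members. Of 10 cytokines counted, Il12b was higher and Il15 and Il1a were lower, beside 2.01% higher and 5.74% lower over all genes. Among unmixed members 1 cytokine was higher and 1 lower, and Il1a lost its call. Il1b, an inflammatory cytokine, stood at 2208 and 1187 CPM (ratio 0.538, 0.513 to 0.563) and was not past 2-fold, while macrophages held it at 840 and 2543 CPM.

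Among the 10 higher genes whose intervals lay farthest from equality, several rested on few cells. Gzmc, a cytotoxic granule protease, had 0 control UMIs and 66 cKO UMIs in 7 cells, and none in unmixed members. By the count limit used for Ifit3b it was at least 14.0-fold higher. Its interval limit nearer to 1 was lower, at 11.0-fold. S100g, a calcium-binding protein of epithelia, had 21 and 377 UMIs, of which 96.8% came from a single cKO cell. Ptprb, an endothelial phosphatase, had 2 and 56 UMIs in 1 and 5 cells (ratio 17.8, 4.70 to 150). Apold1 had 6 UMIs in 2 and 217 UMIs in 19 cells (ratio 23.0, 10.4 to 63.2), with 45.6% of the cKO UMIs in a single cell.

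The heat shock genes Hspa1a (87.4 and 585 CPM, ratio 6.69, 5.68 to 7.93) and Hspa1b (141 and 703 CPM, ratio 5.01) had the opposite direction among unmixed members, where the ratio of Hspa1a was 0.282. The median per-cell sum of a dissociation stress list was 91.9 per 10000 in control and 90.0 in cKO members. Stard4, which carries cholesterol between membranes, had 10 UMIs in 8 and 151 UMIs in 75 cells, 5.53 and 53.0 CPM (ratio 9.58, 5.07 to 20.4), and a ratio of 11.3 among unmixed members. Among the 10 highest genes, leaving out Apol7c, Stard4 and Irf8 were found in the most cKO cells.

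Among the 10 lowest, Krt19, Ocln and Klf5 are epithelial genes. Krt19 had 1147 UMIs in 18 control members and 12 UMIs in 5 cKO members (151-fold lower, 85.9 to 292), with a cell-free level of 561 and 42.0 CPM. Among unmixed members these 3 genes were at or under 3 UMIs in both libraries. Of 13 epithelial list genes 12 were lower in cKO, beside 5.74% of all genes, with a summed level of 5432 and 180 CPM. Among unmixed members 2 (Ltf and Lcn2) were lower. On the high side, 8 of 9 T and NK cell genes were higher in cKO, beside 2.01% of all genes, and 0 among unmixed members. The unmixed class was chosen by such epithelial and lymphoid genes, so the loss of these calls follows from that choice.

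Since Stard4 and Idi1 were high, a list of 24 cholesterol synthesis and transport genes was drawn up after these values were seen, and its counts are a description. Of 20 counted, 9 were higher in cKO, among them Hmgcs1, Idi1, Sqle, Cyp51, Hsd17b7, Sc5d and Stard4, and 0 were lower. Over all genes 2.01% were higher and 5.74% lower. The list had a median log2 ratio of 1.38 and a summed level of 738 and 2007 CPM. Idi1, an isomerase of the isoprenoid steps, had 226 UMIs in 53 and 1625 UMIs in 129 cells, 125 and 571 CPM (ratio 4.56, 3.97 to 5.27), against 5.08 and 40.4 CPM in macrophages. Hmgcs1, which makes the HMG-CoA from which the pathway starts, stood at 69.7 and 273 CPM (ratio 3.91, 3.24 to 4.76). Sqle, the squalene epoxidase, stood at 10.5 and 53.0 CPM (ratio 5.04, 3.12 to 8.61).

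Among unmixed members 11 of the list were higher, Fdft1 and Msmo1 being added. Per cell, the summed list ran from 0 to 60.7 per 10000 UMIs in control, with a median of 4.71, and from 0 to 109 in cKO, with a median of 14.4. The ranges overlapped, and the upper quartile of control (8.32) lay under the cKO median. Macrophage medians were 2.35 and 4.30.

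Lineage genes went both ways, beside 2.01% higher and 5.74% lower over all genes. Of 10 counted genes of conventional dendritic cells, Flt3 was higher in cKO and Kmo and Plet1 were lower, of which Kmo alone was past 2-fold among unmixed members. Of 12 cDC1 genes Irf8 was higher and Ifi205 lower (356 and 120 CPM, 2.97-fold lower). Of 17 cDC2 genes Cd7 and Dtx1 were higher and Klf4 and Ms4a6c lower. Klf4 stood at 685 and 244 CPM over all members but was higher in cKO among unmixed members (ratio 4.13), so its direction turned with the mixed cells. Kmo, an enzyme of tryptophan breakdown, had 38 UMIs in 24 control and 14 UMIs in 13 cKO members. Cd7 (6 and 57 UMIs) and Dtx1 (0 and 20 UMIs in 2 cells) were not past 2-fold among unmixed members.

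None of 6 counted planar cell polarity genes, the pathway of Prickle1, differed past 2-fold, with a median log2 ratio of 0.42. Over all genes 2.01% were higher and 5.74% lower, so few calls would stand among 6 genes, and nothing is read from their absence. Of 13 counted oestrogen-induced and epithelial secretory genes, 11 were lower in cKO, and 3 among unmixed members. The members' epithelial UMIs moved with this list.

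Genes of both conventional lineages were detected in the mature cells, each group below resting on the detection of 1 UMI or more. Xcr1 or Clec9a, cDC1 genes, without cDC2 genes were detected in 21 control (16.2%) and 44 cKO members (23.0%). Cd209a, Clec10a or Mgl2, cDC2 genes, without cDC1 genes were detected in 24 (18.5%) and 43 (22.5%). Both kinds were found in 3 and 6 cells, and neither in 82 (63.1%) and 98 (51.3%), so most members of either library could not be assigned. At 1000 UMIs per cell, Xcr1 was found in 6.15% and 7.33% of members, against 1.16% and 0% of macrophages. Cd209a was found in 3.85% and 1.57% of members, against 3.86% and 1.59% of macrophages and 0% of stromal cells in both libraries. Mgl2 was found in 0.769% and 3.66% of members and in 5.41% and 7.94% of macrophages. These 2 genes were thus not above their level in macrophages, and the cDC2-marked group is named by its genes only. Of 4561 genes counted, 21 (0.46%) were higher in the cDC1-marked cells past 2-fold in both libraries and 15 (0.329%) were lower.

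Genes higher in cDC1-marked cells included Slc25a20, a mitochondrial carnitine carrier (29.4-fold in control and 10.5-fold in cKO), Treml4 (11.7-fold and 11.6-fold), Clec12a (17.5-fold, 4.39 to 152, and 15.6-fold, 5.05 to 77.9) and the catalase gene Cat (39.8-fold and 6.46-fold). Scin, an actin-severing protein, was 4.20-fold and 11.4-fold higher. Dcn, a stromal gene, was also on this side, but from 3 control and 5 cKO cells. Irf8 was higher in cDC1-marked cells in both libraries, 10.3-fold in control (3.12 to 53.8) and 2.04-fold in cKO (1.71 to 2.45), and was past 2-fold only in control. Batf3, another factor of that lineage, had the opposite order, with ratios of 0.421 (0.121 to 1.203) and 0.643 (0.377 to 1.085), both intervals including 1.

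Genes lower in cDC1-marked than in cDC2-marked cells included the fatty acid binding protein Fabp5 (45.4-fold in control and 12.4-fold in cKO), the interleukin 1 receptor antagonist Il1rn (8.82-fold and 13.5-fold), Tnfrsf9 (5.59-fold and 3.67-fold), and Il2ra (4.74-fold and 2.59-fold). Fscn1 was lower in them too, 17.8-fold in control from 1 and 24 UMIs (2.90 to 732) and 3.73-fold in cKO. Of the rule genes, Ccl17 stood lower in cDC1-marked cells of cKO, with a ratio of 0.083 (0.051 to 0.128), while control held too few UMIs to count, 3 in 1 cell against 16 in 3 cells. Apol7c stood higher in them, with ratios of 6.49 (3.35 to 13.8) and 1.55 (1.36 to 1.78). Ccr7 differed less, with ratios of 1.25 and 0.63. The genes lower in cDC1-marked cells also included Mrc1 (0 against 24 UMIs in control and 2 against 57 in cKO) and the endocytic adaptor Dab2 (2 against 31 and 10 against 56), which macrophages also express. In cKO, Il12b had 259 UMIs in 8 cDC1-marked cells and 4 UMIs in 1 cDC2-marked cell, and control held 0 in both groups. As given above, a single cell held most of the cKO Il12b UMIs.

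**Figure D4:**
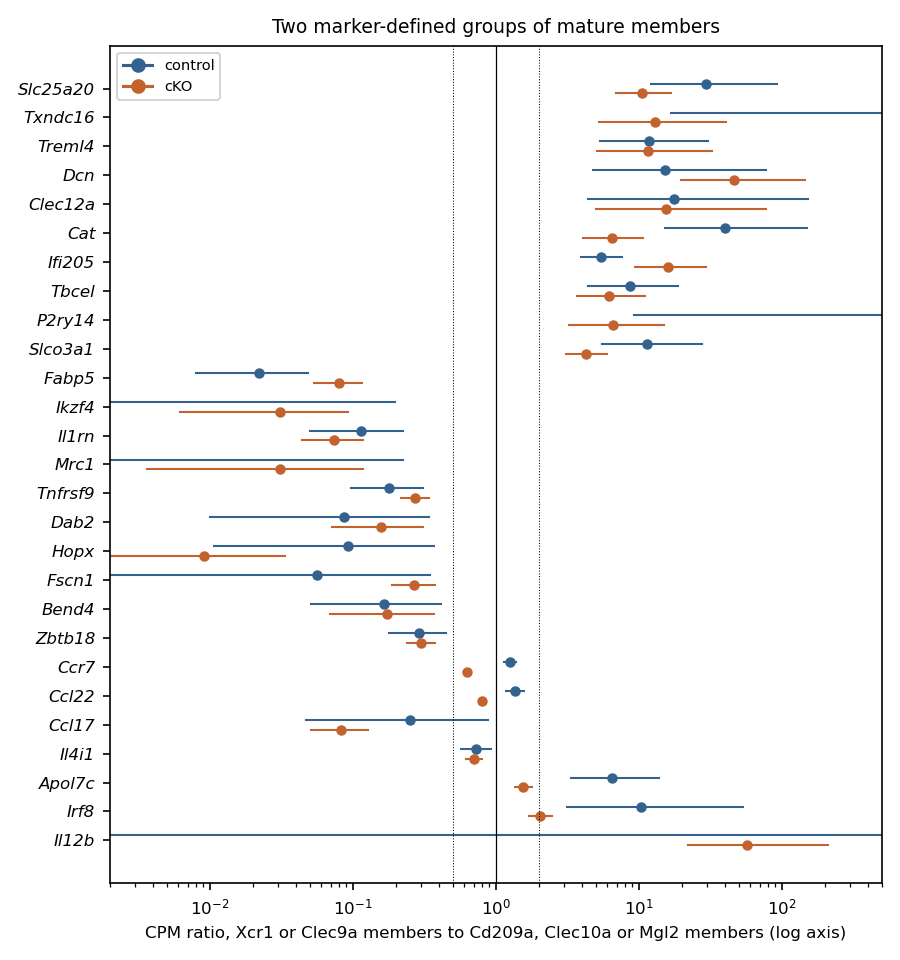
CPM ratio (log axis) of Xcr1 or Clec9a members to Cd209a, Clec10a or Mgl2 members with 95% intervals, control in blue and cKO in orange, a bar without a point meaning 0 UMIs on 1 side, and dotted lines at 2-fold. Slc25a20 and Cat lie to the right in both libraries, and Fabp5, Il1rn and Ccl17 to the left.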

How the data were processed

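The deposited matrices hold raw UMI counts per gene and barcode, unfiltered. Per the file headers, the software was Cell Ranger 4. Per the submitters' processing notes the tool was Cell Ranger 6.1.1 on mm10, which disagrees on the version. The libraries held 45035801 (control) and 57145553 (cKO) UMIs over 32285 genes and 1214689 and 1359477 barcodes. Cell-free levels came from barcodes with at most 100 UMIs.

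UMIs were summed over a class within a library and scaled to CPM by the total of that class. Ratios have exact conditional binomial 95% intervals, levels exact Poisson intervals and shares Clopper-Pearson intervals, none of which cover variation between animals. A gene was called when the interval limit nearer 1 lay past 2-fold, among genes with at least 20 UMIs over both libraries. The log2 ratios used a pseudocount of 0.5 UMI. Against a count of 0, the fold used 3 counts.

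Named genes were the 10 highest and 10 lowest by that limit with at least 20 UMIs and 5 cells in the higher library, a level not under the cell-free level, and no mitochondrial, ribosomal, haemoglobin, immunoglobulin or predicted gene, plus all rule genes and members of fixed lists. Members, lists and rules were chosen with earlier results of these data known. Doublets were scored against 2 simulated doublets per cell at a rate of 0.06 and kept. Python 3.11.15, numpy 2.4.6, scipy 1.17.1, pandas 2.3.3 and, for 1 alternative scaling, edgeR 4.0.16 were used. The procedure was tested on simulated data. Positions are from GENCODE M21 on GRCm38 and promoters from RefSeq. Some genes of the interferon and cholesterol lists are counted but not reported here by name. Alternatives are given in the closing section.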

Additional observations from a re-analysis of the deposited data

Results flagged for a closer look

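Il1a, the gene of interleukin 1 alpha, went in opposite directions in the mature dendritic cells and the C1q macrophages of the same libraries. The members held 135 UMIs in 12 control cells (74.7 CPM) and 6 UMIs in 5 cKO cells (2.11 CPM), 35.5-fold lower in cKO (15.9 to 98.3), a log2 ratio of -5.04. In the macrophages Il1a stood at 61.3 and 152 CPM, higher in cKO with a log2 ratio of 1.31. The difference between the classes was not tested. A single cell held 40.0% of the control UMIs of the members, and among unmixed members the log2 ratio was -1.64 and not past 2-fold.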

How the results depend on the processing

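No paired analysis was possible because each group was 1 library. The log2 ratio of the share of members among all cells, 0.12, became 0.49 with at least 3 of the 5 markers and -0.35 with epithelial-marker cells left out of numerator and denominator. The counts of 191 higher and 545 lower genes became 11 and 64 with each cell thinned to 1000 UMIs and 77 and 186 in unmixed members, and with cells weighted equally 333 genes were lower. Thinning leaves fewer UMIs, and the unmixed class fewer cells. The interferon list stayed on the low side in each of these settings: 42 of its 44 genes were lower in the report, 40 in unmixed members and 34 of the 36 still counted after thinning. Against C1q macrophages the 442 higher and 652 lower genes became 140 and 165 after thinning. Against the 12 Flt3 dendritic cells the 26 higher genes became 10 with at least 3 markers, 48 with equal weights, 0 after thinning and 10 in unmixed members. The 33 lower genes there became 20, 19 with at least 50 UMIs, 65 with no minimum, 0 after thinning and 6 in unmixed members.

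Over the named and rule genes, 261 comparisons with an alternative stayed on their side of the 2-fold limit, 24 of them for Ccr7 and Il4i1, which were never past it, 17 lost their call and 4 turned. After thinning, Stard4 (3.84) and Ccl17 (1.74) lost theirs without a smaller log2 ratio. S100g turned to a log2 ratio of -1.22 with at least 3 markers and Hspa1a to -0.070 after thinning, and among unmixed members Hspa1a was at -1.81 and Hspa1b at -0.45. The causes were not tested. Gzmc in 2 settings and Klf5, Krt19, Ocln and Ptprb in 1 each gave no value, with 3 UMIs or fewer in both libraries. The unmixed class and the macrophage comparison were added after the data were seen. Depth limits genes under about 20 UMIs, and no alternative stands in for a second library.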

Other observations

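Lymphatic endothelial genes appeared in a few cKO members. Of 9 endothelial and mesothelial genes counted, 6 were higher in cKO (Cdh5, Lyve1, Prox1, Flt4, Ccl21a and Emcn) and 0 lower. Over all genes 2.01% were higher and 5.74% lower. Among unmixed members 3 of the 9 were higher and 2 lower. Prox1, the transcription factor of lymphatic endothelium, had 0 control UMIs and 277 UMIs in 4 cKO members, and Lyve1, a hyaluronan receptor of lymphatic endothelium and some macrophages, had 0 and 150 UMIs in 4 cKO members. Prox1 stood at 97.3 CPM in the cKO members and at 29.3 CPM in the cell-free barcodes of that library. C1q macrophages held Prox1 at 0.391 and 0 CPM. Ifnb1, a type I interferon gene, had 13 UMIs in 1 control member and 0 in cKO members.

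Cycling genes were present at low level in both libraries. Mki67 had 51 UMIs in 17 control and 162 UMIs in 36 cKO members, and Top2a had 34 UMIs in 7 and 144 UMIs in 24. None of the 12 counted proliferation genes was past 2-fold over all members, beside 2.01% higher and 5.74% lower over all genes. With so few genes, nothing is read from this absence. The median log2 ratio of the list was 0.78, and Top2a was past 2-fold among unmixed members (ratio 4.25).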
